A study of Mus musculus with 6 samples.

Results

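Fibronectin and 7 other genes whose products build, crosslink, cleave or bind extracellular matrix were followed in RNA sequencing libraries that GEO labels call mesenchymal stromal cells of mouse bone marrow (strain background C57BL/6). The genes were Fn1, Tgfbi, Thbs1, Vcan, F13a1, Timp2, Mmp14 and Lgals3, 8 genes found by symbol in a count table that holds 26980 others. They were picked by name, with earlier results of the same comparison known, so their differences between the groups are given as a description and without a test. The study compared 3 libraries of animals with a targeted deletion of Hes1 (Hes1 KO), a transcriptional repressor that acts downstream of Notch, with 3 wild-type (WT) libraries. The deletion was made by breeding heterozygous Hes1fl/+ animals with Prx1Cre mice, whose Cre follows the Prx1 promoter in early limb bud and part of the craniofacial mesenchyme. How many Hes1 alleles were deleted, the animals' age, whether WT animals carried Cre, and whether libraries came from separate animals are not stated in the labels, so SDs and p-values measure only the spread between these libraries. No treatment other than genotype is given for either group.

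Fibronectin is secreted as a dimer and assembled by cells into fibres through integrins. Fibroblasts and stromal cells are its best known source, but monocytes and macrophages also make it. Monocytes are likewise a known source of the transglutaminase subunit encoded by F13a1, which crosslinks fibrin and fibronectin, of the fibronectin-associated adhesion protein Tgfbi, of the proteoglycan versican (Vcan) and of thrombospondin 1 (Thbs1). Mmp14 is a membrane-anchored protease that cleaves collagen and fibronectin at the cell surface, Timp2 inhibits it and also serves as its adaptor for activating pro-Mmp2, and Lgals3 encodes galectin-3, a sugar-binding protein that links glycoproteins of cells and matrix.

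The libraries differed widely in depth and make-up. The Hes1 KO libraries held 20563116 to 22131465 counts, WT replicate 2 held 5812598 and WT replicate 3 held 12109170, while WT replicate 1 held 66167, so that 1 count there made 15.1 CPM (counts per 1000000 counts of the library). Hes1 itself had 185, 220 and 255 counts in Hes1 KO replicates 1, 2 and 3 and 0, 310 and 345 in WT replicates 1, 2 and 3, so WT replicate 1 does not check its label. Counted over the whole gene, Hes1 had a log2 fold change (Hes1 KO minus WT) of -2.55 without WT replicate 1 (adjusted p = 0.0294) and -2.12 with it (adjusted p = 0.364), by edgeR with Benjamini-Hochberg adjustment. The 19 stromal markers together took 0.00893% to 0.0967% of counts, with 15 of them at 0 in WT replicate 1. Prrx1 had at most 2 counts and Pdgfra at most 6 in any library, while Cxcl12 was at 3.12 to 14.0 CPM and Pdgfrb at 6.71 to 7.91 CPM across Hes1 KO. Runx2 and Eng, both also made outside stroma, were the most abundant of the list. The 13 monocyte markers took 0.707% to 0.865% of counts in the Hes1 KO libraries and 1.35%, 0.213% and 0.0344% in WT replicates 1, 2 and 3, with 3 of them at 0 in WT replicate 1. The 14 neutrophil markers took 4.92%, 13.1% and 5.98% in the Hes1 KO libraries and 1.12%, 1.54% and 0.0363% in WT, with 4 of them at 0 in WT replicate 1. S100a8 and S100a9, at 2482 and 2320 CPM in WT replicate 2, had 0 counts in WT replicate 1, while Ngp and Ltf had 190 and 79 there. The cause of these zeros was not tested, and the intervals given below for that library cover counting error only. The 12 erythroid markers took 42.7% of WT replicate 3 and at most 0.334% of any other library. In such bulk libraries, fewer cells of a type and less RNA per cell cannot be told apart. This holds for Hes1 too, so its fold change does not separate the deletion from a difference in cell make-up.

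Promoter sequence is shown for 3 of the 8 genes. F13a1 held the 1 match to a Hes1 recognition sequence found among them, and Lgals3 and Mmp14 had the same kind of promoter motif and fitted differences of opposite sign. The log2 fold change of Mmp14 was only -0.92 (SE 0.91) with 6 libraries, and its CPM ranges overlapped. That motif, the GC box, was also found in Tgfbi, Timp2 and Vcan. Each is the 250 bases before a transcript start in the RefSeq table on GRCm38.p6, printed 5′ to 3′ along the gene, with the N box CACNAG bound by Hes1-type repressors and the GC box GGGCGG bound by Sp1-type factors in capitals where found on either strand. The positions are F13a1 at chr13:37049214-37049463 on the minus strand, Lgals3 at chr14:47373610-47373859 on the plus strand and Mmp14 at chr14:54431348-54431597 on the plus strand. The bases that follow the start were found in a GENCODE M21 transcript of the gene for F13a1 and Lgals3 and not for Mmp14, and the coordinates are not those of GRCm39, the build of the counts.
F13a1: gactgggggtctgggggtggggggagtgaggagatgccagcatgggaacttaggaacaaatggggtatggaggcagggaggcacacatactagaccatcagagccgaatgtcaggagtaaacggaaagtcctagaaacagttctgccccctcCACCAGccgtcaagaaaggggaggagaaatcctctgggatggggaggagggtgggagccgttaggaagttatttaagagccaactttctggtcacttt
Lgals3: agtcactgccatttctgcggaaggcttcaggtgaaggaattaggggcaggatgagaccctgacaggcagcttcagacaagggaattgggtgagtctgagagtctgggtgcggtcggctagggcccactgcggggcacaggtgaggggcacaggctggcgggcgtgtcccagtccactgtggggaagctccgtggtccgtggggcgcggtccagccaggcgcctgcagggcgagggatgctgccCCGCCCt
Mmp14: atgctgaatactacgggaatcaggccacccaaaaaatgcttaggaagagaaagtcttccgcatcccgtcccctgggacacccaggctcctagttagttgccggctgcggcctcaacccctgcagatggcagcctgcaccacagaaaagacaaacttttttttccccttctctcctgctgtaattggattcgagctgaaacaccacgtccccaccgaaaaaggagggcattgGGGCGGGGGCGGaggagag

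RefSeq promoters were found for 6 of the 8 genes, in 7 entries, as F13a1 had 2. The N box was in 1 of the 7 entries, F13a1, at bases -98 to -93 from the start, against 36.7% of the 32851 promoter windows of the same length. The other Hes1 site searched, CACGCG, was in 0 of the 7, against 7.62%. The GC box was in 5 of 7, against 32.7%, and Mmp14 held a pair of them side by side. The core letters bound by NFAT factors, GGAAA, were in 4 of 7, against 55.6%, and in Vcan 1 of them overlapped a GC box. The PU.1 sequence GAGGAAGT and the AP-1 sequence TGANTCA were in 0 of 7, against 2.44% and 6.75%. Both strands were searched for each motif, and a match describes letters in the window only.

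Fibronectin varied least of the 8 transcripts between the Hes1 KO libraries and was far lower in the deep WT libraries. The Fn1 level was 1607, 1578 and 1412 CPM for Hes1 KO replicates 1, 2 and 3 (mean 1532 ± 105 SD, n = 3). In WT replicates 1, 2 and 3 it was at 1496, 349 and 16.2 CPM (mean 620 ± 777 SD, n = 3). The highest Hes1 KO library was 1.14-fold above the lowest, whereas WT replicate 2 was 21.5-fold above WT replicate 3. WT replicate 1 rested on 99 counts, and its Wilson 95% interval of 1229 to 1821 CPM held all 3 Hes1 KO values. The groups thus overlapped through the shallow library, and the other WT libraries lay below, the lowest Hes1 KO value being 4.05-fold above WT replicate 2. The fitted log2 fold change of Fn1 was 1.75 (SE 0.99) with all 6 libraries and 3.16 (SE 0.89) with the 5 libraries left without WT replicate 1. It was 5.17 when WT replicate 2 was left out too, so that WT replicate 3 alone stood for the group. Counts were summed over the gene, so splice forms of fibronectin were not told apart.

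Tgfbi, an adhesion protein induced by TGF-beta that binds integrins and collagen, had the same order of libraries as Fn1 within the WT group. It was at 406, 447 and 331 CPM across Hes1 KO (mean 394 ± 58.9 SD, n = 3), against 242, 74.8 and 1.90 CPM in WT replicates 1, 2 and 3 (mean 106 ± 123 SD, n = 3). All Hes1 KO libraries lay above all WT libraries, although the 16 counts of WT replicate 1 gave an interval of 149 to 393 CPM that held the value of Hes1 KO replicate 3. The log2 fold change was 2.40 (SE 1.00) with 6 libraries and 3.51 (SE 1.05) with 5. Leaving out WT replicate 2 from the 5 libraries put it at 6.31.

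Thbs1, a matricellular protein that can release TGF-beta from its latent form, varied more within Hes1 KO. It was at 170, 404 and 270 CPM there (mean 281 ± 117 SD, n = 3) and at 136, 146 and 2.06 CPM in WT (mean 94.7 ± 80.3 SD, n = 3). The groups did not overlap in CPM, but the interval of WT replicate 1 (71.6 to 259 CPM) held the lowest Hes1 KO value. That Hes1 KO library was 1.17-fold above WT replicate 2, and WT replicate 3 was far below the rest with 25 counts. Its log2 fold change was 1.92 (SE 0.96) with 6 libraries and 2.13 (SE 1.20) with 5, and became 5.73 when WT replicate 2 was left out of the 5 and 1.24 when WT replicate 3 was. Hes1 KO replicate 2, the highest of its group in Tgfbi, Thbs1, Timp2 and Lgals3, also had the highest share of neutrophil markers, and the part of those cells in these values was not tested.

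Vcan, the large proteoglycan that binds hyaluronan, was similar in the 3 Hes1 KO libraries, at 38.3, 38.0 and 30.8 CPM (mean 35.7 ± 4.23 SD, n = 3). WT replicates 1, 2 and 3 were at 15.1, 4.47 and 0.578 CPM, from 1, 26 and 7 counts (mean 6.72 ± 7.52 CPM, SD, n = 3). The lowest Hes1 KO value was 6.89-fold above WT replicate 2, the widest such gap among the 8 genes. A single count carried WT replicate 1, with an interval of 2.67 to 85.6 CPM that held every Hes1 KO value. The log2 fold change was 3.28 (SE 0.83) with 6 libraries and 3.72 (SE 0.48) with 5, the highest of the 8 in each fit.

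F13a1, the crosslinking subunit of clotting factor XIII, was the gene on which the shallow library bore most. It was at 1755, 1166 and 1424 CPM across Hes1 KO (mean 1448 ± 295 SD, n = 3), against 3975, 434 and 25.1 CPM in WT (mean 1478 ± 2172 SD, n = 3). WT replicate 1, with 263 counts and an interval of 3523 to 4484 CPM, lay above every Hes1 KO library, the only member for which this was so. The log2 fold change of F13a1 was 0.44 (SE 1.13) with all 6 libraries and 2.70 (SE 0.80) with 5, or 4.43 when WT replicate 2 was left out of the 5. With library size alone as the scale and all libraries it was -0.02, without WT replicate 3 it was -0.08, and without WT replicate 2 it was 0.01. Its direction with 6 libraries thus changed with the scaling and without WT replicate 3.

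Lgals3 had the same order of WT libraries as F13a1. It was at 421, 780 and 399 CPM across Hes1 KO (mean 533 ± 214 SD, n = 3), against 635, 78.1 and 11.3 CPM in WT (mean 241 ± 342 SD, n = 3). The 42 counts of WT replicate 1 placed that library inside the Hes1 KO range, with an interval of 470 to 858 CPM. The other WT libraries lay below the range, and the lowest Hes1 KO library was 5.10-fold above WT replicate 2. Its highest value was again in Hes1 KO replicate 2. The log2 fold change was 1.66 (SE 0.95) with 6 libraries, 1.08 without Hes1 KO replicate 2 among them, and 3.49 (SE 0.62) with 5.

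The protease and its inhibitor differed from each other. Timp2 was at 22.5, 79.9 and 32.1 CPM across Hes1 KO (mean 44.8 ± 30.7 SD, n = 3), against 30.2, 7.74 and 2.31 CPM in WT (mean 13.4 ± 14.8 SD, n = 3), where replicate 1 rested on 2 counts. Its groups overlapped through WT replicate 1, and Hes1 KO replicate 2 was 3.56-fold above Hes1 KO replicate 1. The log2 fold change of Timp2 was 2.34 (SE 0.80) with 6 libraries and 2.87 (SE 0.69) with 5, and 1.35 and 1.89 when Hes1 KO replicate 2 was left out of each. Mmp14 had Hes1 KO levels of 5.87, 3.59 and 8.51 CPM (mean 5.99 ± 2.46 SD, n = 3). In WT it was at 13.9 CPM in replicate 2 and 5.53 CPM in replicate 3. Its 0 counts in WT replicate 1 allow up to 58.1 CPM by the Wilson interval, so at this depth it was not detectable there. The CPM ranges overlapped, as WT replicate 3 lay inside the Hes1 KO range. The log2 fold change of Mmp14 was -0.92 (SE 0.91) with 6 libraries and -1.19 (SE 0.36) with 5, and -0.48 and -0.70 with library size alone as the scale. That scale moved the median of all genes to 0.26 with 6 libraries and 0.44 with 5, so Mmp14 stood below the median gene on each scale.

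**Figure D1:**
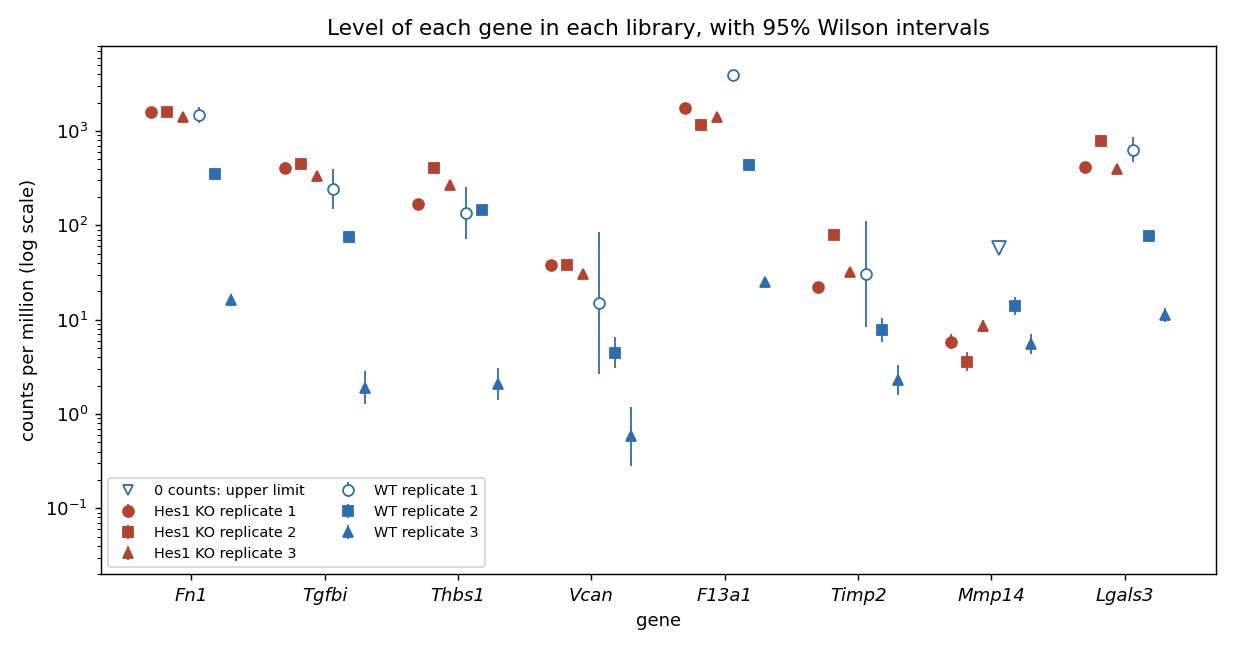
CPM on a log axis for each of the 8 genes in the 3 Hes1 KO (red) and 3 WT (blue) libraries, with bars for 95% Wilson intervals of counting error and an open triangle for the upper limit where 0 counts were found. WT replicate 1 (open symbols) sits near or above the Hes1 KO libraries for Fn1, F13a1, Timp2 and Lgals3, while WT replicates 2 and 3 sit below them for every gene but Mmp14.

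The ratio of Timp2 to Mmp14 needs no scaling between libraries. There were 3.82, 22.3 and 3.78 counts of Timp2 per count of Mmp14 in Hes1 KO replicates 1, 2 and 3. In WT replicates 2 and 3 the ratios were 0.556 (interval 0.387 to 0.798) and 0.418 (0.270 to 0.647). The ratio was thus higher in every Hes1 KO library than in the deep WT libraries, while WT replicate 1, with 2 counts against 0, gave no ratio. Mmp2, the protease whose proform is activated through Mmp14 and Timp2, was chosen after its values were seen and had at most 46 counts in any library.

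All 8 genes passed the filter on low counts in both fits, for which the Hes1 KO libraries alone sufficed. With 6 libraries 7 of the 8 had higher fitted levels in the Hes1 KO libraries. Over all genes, 0% of 14756 passed by edgeR's quasi-likelihood test with Benjamini-Hochberg adjustment at a threshold of 0.05, and the 8 genes' own calls are not given because the choice of genes used this contrast. At an unadjusted p under 0.05 edgeR gave 2200 genes (14.9%), 0 genes passed by limma-voom, and DESeq2 put the count at 813 (5.51%), with 232 of them higher in Hes1 KO (1.57%). Without WT replicate 1, edgeR called 2513 of 16190 genes, 7.44% higher and 8.09% lower in Hes1 KO. The median log2 fold change of the 8 was 1.84 with 6 libraries and 3.01 with 5, beside 0.03 and 0.02 over all genes tested. Since the genes were chosen on this contrast, their counts and medians are not read against these backgrounds. The calls of the 5-library fit fell to 0 when any 1 of the Hes1 KO libraries was left out, and they were 4809 without WT replicate 2 and 6210 without WT replicate 3, where the 1 WT library that remains is assumed to vary like the Hes1 KO libraries.

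**Figure D2:**
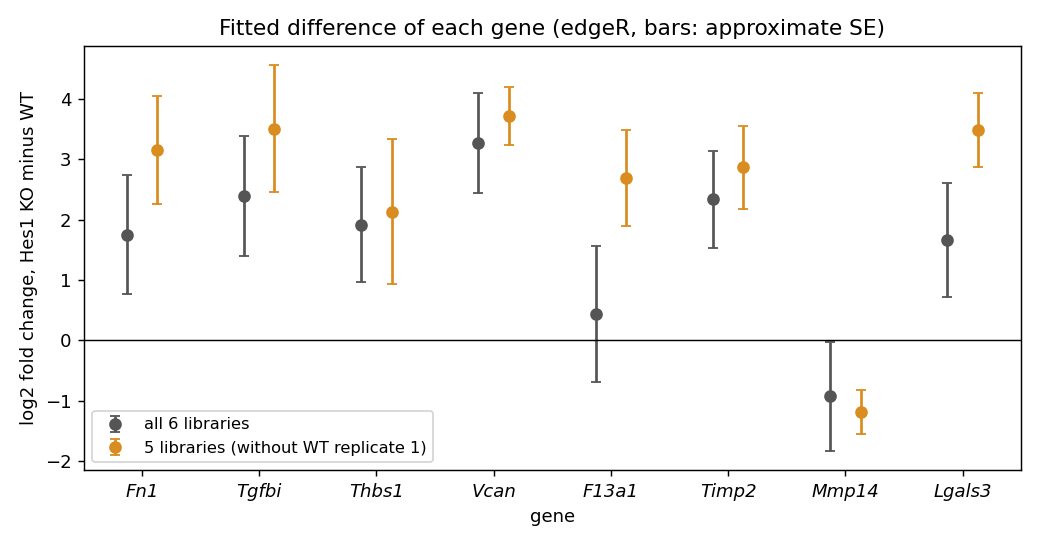
Fitted log2 fold change (Hes1 KO minus WT) of each gene with all 6 libraries (grey) and with the 5 libraries without WT replicate 1 (orange), with bars for approximate standard errors. Without that library F13a1 moves from 0.44 to 2.70 and Fn1 from 1.75 to 3.16, while Mmp14 stays below 0 in both.

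Whether the groups overlapped depended on WT replicate 1 for 4 of the 8 genes (Fn1, F13a1, Timp2 and Lgals3). In CPM, 3 of the 8 genes (Tgfbi, Thbs1 and Vcan) had every Hes1 KO library above every WT library, where 24.7% of all genes tested did. Against WT replicates 2 and 3 alone, 7 of 8 did, where 35.1% of all genes tested did. WT replicate 1 lay above every Hes1 KO library for 1 of 8, F13a1, and for 28.3% of all genes tested.

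Levels of different genes were compared per length, as CPM per kilobase of exon bases (GENCODE M21), while count ratios between genes serve to compare libraries only. By that measure Lgals3 was highest in Hes1 KO at 287 on average, followed by F13a1 at 215, Fn1 at 131 and Tgfbi at 105. Thbs1 was at 46.3, Timp2 at 11.5, Vcan at 2.47 and Mmp14 at 1.01. The order of Fn1, Tgfbi, Thbs1, Timp2, Vcan and Mmp14 was the same in each Hes1 KO library. Lgals3 and F13a1 exchanged the first place, as F13a1 led in Hes1 KO replicate 1 at 260 against 227, and the values of Lgals3 and F13a1 overlapped between libraries. In WT replicate 3, Mmp14 took the fourth place, at 0.928, above Timp2 at 0.594, Tgfbi at 0.504 and Thbs1 at 0.340.

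The make-up of the 8 genes' counts was then compared within each library, which also needs no scaling between libraries. Fn1 made 36.3%, 35.1% and 36.1% of these counts in the Hes1 KO libraries and 22.9%, 31.5% and 24.9% in WT replicates 1, 2 and 3. The widest of its intervals in WT reached 19.2% to 27.1%, below the Hes1 KO values. Tgfbi made 8.47% to 9.94% in the Hes1 KO libraries and 3.70%, 6.76% and 2.92% in WT. For both genes the WT shares lay below every Hes1 KO share. F13a1 made 25.9% to 39.7% in Hes1 KO, 60.9% in WT replicate 1 (interval 56.2% to 65.4%), 39.2% in WT replicate 2 and 38.6% in WT replicate 3. Mmp14 made 0.0799% to 0.218% in Hes1 KO, against 1.26% for WT replicate 2 and 8.51% for WT replicate 3. Thbs1 was highest in WT replicate 2, at 13.2%, and ranged from 3.84% to 8.98% in Hes1 KO. Counts of Fn1 per count of F13a1 were 0.916, 1.35 and 0.992 in the Hes1 KO libraries and 0.376, 0.803 and 0.645 in WT. These shares trade off against each other, so a higher share of 1 gene lowers the others.

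**Figure D3:**
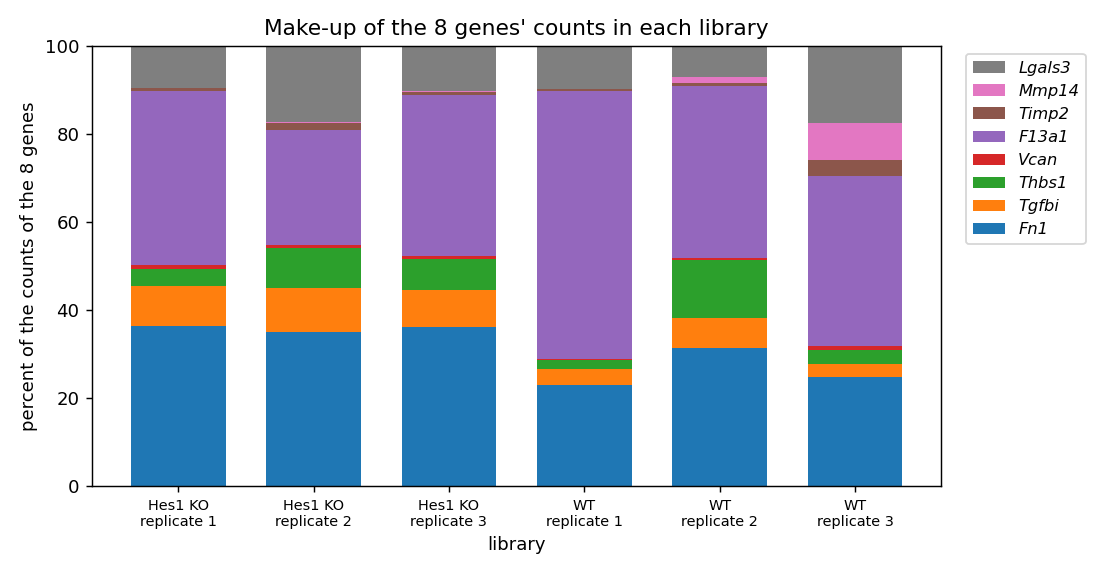
Percent of the summed counts of the 8 genes that each gene made, as stacked bars for the 3 Hes1 KO and 3 WT libraries. Fn1 makes 35.1% to 36.3% in Hes1 KO, F13a1 makes 60.9% in WT replicate 1, and Mmp14 is visible as a band mainly in WT replicate 3 at 8.51%.

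The summed level of the 8 genes moved with the monocyte markers. It was 4425, 4496 and 3907 CPM across Hes1 KO and 6529, 1108 and 65.0 CPM in WT replicates 1, 2 and 3, the same order within WT as the monocyte share given above. The shares of macrophage, stromal and endothelial markers had that order within WT too, so the order is not particular to monocytes. Per 1000 counts of the 13 monocyte markers, the 8 genes summed to 607, 520 and 552 counts in the Hes1 KO libraries and to 482, 520 and 189 in WT. On that scale WT replicate 2 lay inside the Hes1 KO range (520.113 against 519.625 in Hes1 KO replicate 2). WT replicate 1 lay below it and WT replicate 3 well below it. The part of the marker Chil3 in this scale is given below. The mean log2 difference (Hes1 KO minus WT) was 0.63 on that scale and 2.46 per count of all genes, with a spread between libraries of a group of 0.58 on the first scale. Without WT replicate 3 it was 0.16 on the first scale. The part of monocyte abundance in the members' own differences was not tested beyond these values. The monocyte list itself had 8 of 13 genes that rose and 0 that fell in the 5-library fit (edgeR with Benjamini-Hochberg adjustment), and 0 of 13 that passed with 6 libraries, where 7.44% and 8.09% of all genes tested were called higher and lower with 5 libraries and 0% were called with 6. Of its most abundant genes, Ly6c2, a surface antigen of inflammatory monocytes, was at 1026 to 1272 CPM across Hes1 KO, against 5773, 257 and 14.5 CPM in WT. Chil3, a chitinase-like protein of monocytes and neutrophils, was at 2204 to 4274 CPM across Hes1 KO, against 0, 909 and 14.3 CPM in WT. It made 48780 of 161302, 90490 of 183155 and 62890 of 145474 monocyte marker counts in Hes1 KO replicates 1, 2 and 3. In WT replicates 1, 2 and 3 it made 0 of 896, 5284 of 12380 and 173 of 4163. The scale per monocyte marker count thus leaned on Chil3 unequally between libraries. Chil3 made a larger part of the marker counts in every Hes1 KO library than in WT replicates 1 and 3. It therefore lowered the Hes1 KO values on this scale more than those of these WT libraries. A scale without it was not computed.

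Single genes kept different places on that scale. Per 1000 monocyte marker counts, 4 of the 8 (Fn1, Tgfbi, Vcan and Lgals3) had every Hes1 KO library above every WT library, where 0.847% of the 14756 genes tested did. Dividing by these markers lowers most genes in Hes1 KO against WT replicates 2 and 3, where the markers took less of the counts. The 0.847% is thus low partly by construction, beside 24.7% in CPM, and the 4 genes are not read against it. Fn1 was at 220, 182 and 200 across Hes1 KO, against 110, 164 and 47.1 in WT. Tgfbi was at 46.8 to 55.7 across Hes1 KO, against 17.9, 35.1 and 5.52 in WT. The gaps were narrow for Fn1, whose lowest Hes1 KO value was 1.11-fold above the highest WT value, and for Lgals3, at 1.20-fold. They were wider for Tgfbi, at 1.33-fold, and Vcan, at 2.08-fold, where 1 count stood for WT replicate 1. F13a1 was at 135 to 241 across Hes1 KO, against 294, 204 and 73.0 in WT, and thus overlapped, as did Thbs1 and Timp2. Mmp14 was at 0.415 to 1.20 in Hes1 KO, against 6.54 for WT replicate 2 and 16.1 for WT replicate 3. Per 1000 counts of the 14 macrophage markers Fn1 overlapped too, with 894 in WT replicate 2 and 877 in Hes1 KO replicate 1. These scales are defined by genes that themselves differed between the libraries, and the members were chosen on this contrast, so no test was made.

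**Figure D4:**
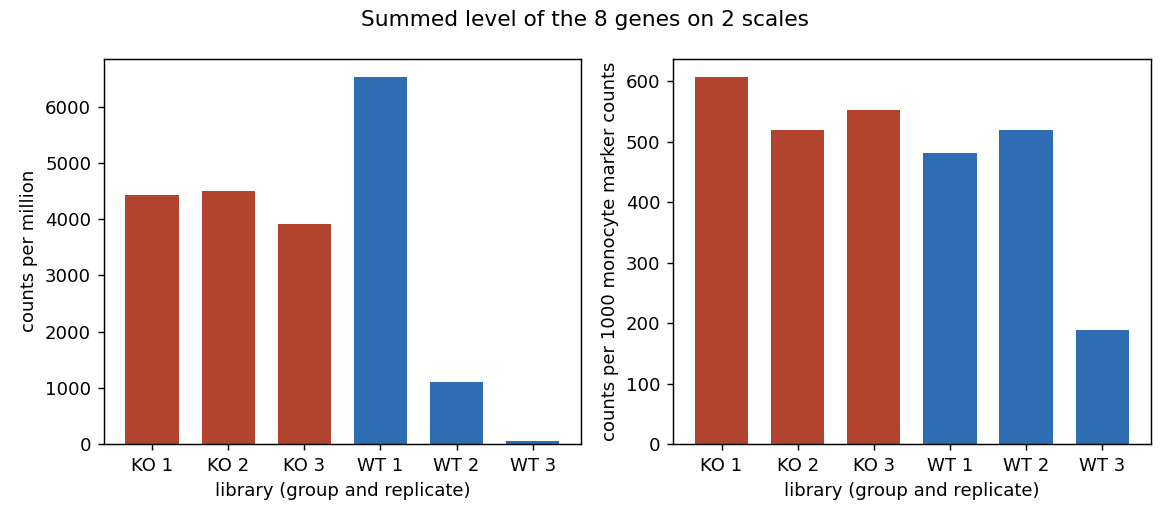
Summed counts of the 8 genes in each library (red Hes1 KO, blue WT), as CPM on the left and per 1000 counts of the 13 monocyte markers on the right, with axes from 0. WT replicates 2 and 3 stand at 1108 and 65.0 on the left, and WT replicate 2 reaches the Hes1 KO range, at 520, on the right. Chil3 made 90490 of the 183155 monocyte marker counts in Hes1 KO replicate 2 and 0 of the 896 in WT replicate 1.

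Other sources of these transcripts were looked at through their markers. Platelets and megakaryocytes also carry Thbs1, F13a1 and fibronectin, and the 12 markers of these cells took 0.00609% to 0.00790% of counts in the Hes1 KO libraries and 0.00151%, 0.00461% and 0.00336% in WT. In the Hes1 KO libraries and WT replicate 3, most of these counts came from Itga2b, an integrin subunit also made by blood progenitors. It had 1011, 1240 and 948 counts in Hes1 KO, against 0, 97 and 284 in WT. In WT replicate 2 its 97 counts were the smaller part of 268. The platelet chemokine genes Pf4 and Ppbp had at most 31 and 20 counts in any library, Gp1ba had 112 to 162 in Hes1 KO, and the part of platelet RNA in the members' values was not tested. Endothelial markers took 0.00933% to 0.0133% in the Hes1 KO libraries and 0.0499%, 0.0145% and 0.00808% in WT. The erythroid share of WT replicate 3 lowers the CPM of every other gene there. Without erythroid and megakaryocyte genes in the total, Fn1 was at 28.3 CPM in WT replicate 3, F13a1 at 43.8 and Lgals3 at 19.8, which remained below WT replicate 2 and every Hes1 KO library. B cell markers took 0.187% to 0.301% in the Hes1 KO libraries and 0.0227%, 0.734% and 0.439% in WT, and T and NK cell markers at most 0.0831% of any library.

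The rest of the matrix system was read from 9 gene lists drawn from textbook biology, with changes given as log2 fold changes of the 5-library fit unless 6 libraries are named. The counts of each list stand beside 7.44% of all genes tested that were called higher and 8.09% that were called lower in that fit, and no list is set apart from them here. Of 20 stromal matrix genes, 9 were tested with 5 libraries, 1 rose and 0 fell, with a median log2 fold change of 0.67. The 1 was Emilin1, an elastic fibre glycoprotein also made outside stroma, which rose by 1.36 (SE 0.33, adjusted p = 0.0491, edgeR with Benjamini-Hochberg adjustment). With 6 libraries its log2 fold change was 0.59, and WT replicate 1 stood above every Hes1 KO library at 151 CPM. Counts of Col1a1, the main bone collagen gene, were 96, 38 and 35 in the Hes1 KO libraries and 0, 39 and 7 in the WT libraries. Of the relatives of Thbs1 and other matricellular genes, 6 of 14 were tested, 0 rose and 1 fell. That gene was Thbs2, the closest relative of Thbs1, with 11, 2 and 3 counts in the Hes1 KO libraries and 13 and 9 in WT replicates 2 and 3 (log2 fold change -2.99, adjusted p = 0.0456, edgeR with Benjamini-Hochberg adjustment).

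Among 17 matrix receptors tested with 5 libraries, 5 rose, 2 fell and 10 did not pass, with a median log2 fold change of 0.80. The cell-surface proteoglycan Sdc3 rose by 3.46 (SE 0.36), the endocytic receptor Lrp1, which takes up Thbs1 and proteases, by 2.27 (SE 0.51) and the integrin subunit Itgb7 by 2.15 (SE 0.27). Itgb5 and Itgb1, the common beta chain of fibronectin receptors, were named after their values were seen and rose by 1.51 and 1.08. The endothelial receptor Robo4 fell by 2.28 (SE 0.40) and Sdc4, a proteoglycan that binds fibronectin at focal adhesions, fell by 1.77 (SE 0.26). The largest adjusted p among these 7 was 0.0473, for Itgb1 (edgeR with Benjamini-Hochberg adjustment). WT replicate 1 again ran the other way for some of them, with Itgb7 at 846 CPM against 294 to 353 in the Hes1 KO libraries and Lrp1 at 287 against 131 to 181. With 6 libraries their log2 fold changes were 0.45 and 0.94.

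Of 18 tested metalloproteinases and relatives, 2 rose and 0 fell in the 5-library fit, with a median of 0.87. DESeq2 called 5 of 16 higher with 6 libraries, where it called 1.57% of all genes tested higher. The 2 of the 5-library fit were the membrane proteases Adam8, by 2.80 (SE 0.69), and Adam15, by 2.57 (SE 0.45). Their adjusted p were 0.0495 and 0.0312 (edgeR with Benjamini-Hochberg adjustment). Adam8 was highest in Hes1 KO replicate 2 at 258 CPM, the library with the highest neutrophil share, against 88.9 and 121 in the others. The neutrophil collagenase Mmp8 and gelatinase Mmp9, named after their values were seen, were also highest there, at 1770.3 and 1668 CPM. Their log2 fold changes were 4.84 and 4.06 with adjusted p = 0.0741 and 0.0689 (edgeR with Benjamini-Hochberg adjustment). Of the 5 other inhibitors listed, Timp1, Timp3, Timp4 and A2m had at most 8 counts in any library. Reck, a membrane-anchored inhibitor and the 1 of the 5 that was tested, had 293, 455 and 246 counts in Hes1 KO, against 0, 55 and 15 in WT, and a log2 fold change of 1.47, with adjusted p = 0.106 by edgeR with Benjamini-Hochberg adjustment.

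Among transglutaminase, clotting and fibrinolysis genes, 12 of 18 in the table were tested, 2 rose, 0 fell, and the median was 1.41. Clotting factor X (F10) rose by 2.89 (SE 0.59) and the protease inhibitor Serpine2 by 1.34 (SE 0.28), both with adjusted p = 0.0378 (edgeR with Benjamini-Hochberg adjustment). F10 resembled F13a1 in WT replicate 1, with 514 CPM there against 63.5 to 74.4 in Hes1 KO, and its log2 fold change with 6 libraries was -0.75. Of 5 tested galectins 1 rose and 0 fell, with a median of 0.26. Lgals1, a galectin that binds cell-surface sugars, rose by 2.26 (SE 0.54, adjusted p = 0.048, edgeR with Benjamini-Hochberg adjustment). It was at 529 to 668 CPM across Hes1 KO, against 74.1 and 73.7 in WT replicates 2 and 3, and had 0 counts in WT replicate 1. Lgals9, named after its values were seen, was at 233 to 281 CPM across Hes1 KO, against 680, 222 and 237 in WT, with a log2 fold change of -0.72 (adjusted p = 0.316, edgeR with Benjamini-Hochberg adjustment).

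Hyaluronan and lectican genes, the partners of versican, gave 0 calls among 6 tested (median 1.04). The 2 with the smallest p were Hyal2, a hyaluronidase, at 1.72 CPM or less in WT replicates 2 and 3 and 3.21 to 4.74 in Hes1 KO, and Lyve1, a hyaluronan receptor, with 14, 131 and 38 counts in the Hes1 KO libraries and 1 each in WT replicates 2 and 3. Their adjusted p were 0.0638 and 0.0571 (edgeR with Benjamini-Hochberg adjustment). TGF-beta activation and target genes, which bear on Tgfbi and Thbs1, had 1 that rose and 4 that fell among 13 tested, with a median of 0.22. The corepressor Ski rose by 1.31 (-0.14 with 6 libraries, where WT replicate 1 stood at 257 CPM against 60.7 to 74.8 in Hes1 KO), and Tgif1, another corepressor, fell by 2.15, the latency protein Ltbp1 by 2.06 and the feedback inhibitor Smad7 by 1.99. The fourth, named after its values were seen, was Skil, a relative of Ski, which fell by 1.40. In CPM the groups overlapped for these 4 genes. WT replicate 2 stood above every Hes1 KO library, at 161 for Tgif1, 2.24 for Ltbp1, 87.7 for Smad7 and 191 for Skil. WT replicate 3 was inside the Hes1 KO range for Tgif1 (24.9 against 20.8 to 27.8) and Ltbp1 (0.578 against 0.236 to 0.587). It was below every Hes1 KO library for Smad7 and for Skil (29.1 against 44.6 to 47.6 for Skil). The largest adjusted p of the 5 was 0.0467, for Skil (edgeR with Benjamini-Hochberg adjustment). With 6 libraries 0 genes of these 9 lists passed by edgeR and 9 by DESeq2, where 0% and 5.51% of all genes tested passed. With 5 libraries the lists held 19 calls by edgeR, where 15.5% of all genes tested were called. These 19 calls fell to 0 when any 1 of the Hes1 KO libraries was left out.

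Other transcripts were compared with the mean profile of the 8 genes, and the members with Fn1, from which Mmp14 departed. Over the 5 libraries without WT replicate 1, the genes with the highest Pearson r with the members' mean profile of log2(CPM + 1) were Galns, Tmem38b, Dctn6, Rhoa, Nlrx1 and Maea, each with r of 1.00 after rounding. Of 9004 genes compared, 2633 had r over 0.95 with the mean profile. Among the members, r with Fn1 was 1.00 for Tgfbi after rounding, 0.996 for F13a1, 0.975 for Lgals3, 0.967 for Thbs1, 0.963 for Vcan, 0.897 for Timp2 and -0.05 for Mmp14. Of the same 9004 genes, 2902 had r over 0.95 with Fn1, so such values do not set the members apart. All these values share the same 5 libraries and their depths.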

How the data were processed

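RNA of 6 libraries was sequenced from polyadenylated, strand-kept libraries, per the labels' protocols. The authors deposited whole-number read counts per gene symbol, which the name of the deposited table ascribes to featureCounts; the submitters' processing notes name GRCm39, edgeR and limma. For the aligner, the annotation and the strand setting, nothing was given in the sources used here, so reads of a gene and an antisense partner cannot be told apart. Groups and replicate numbers came from the sample titles.

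The deposited counts went unchanged into edgeR 4.0.16 (R 4.3.3): filterByExpr, TMM scaling, the quasi-likelihood test (legacy option off) and Benjamini-Hochberg adjustment over all genes, with all 6 libraries (14756 genes) and without WT replicate 1 (16190 genes). Standard errors are approximate, |log2 fold change| over the root of F. CPM are counts per library total without TMM factors, which for WT replicate 3 were 0.397 with 6 libraries and 0.445 with 5. Wilson intervals (scipy 1.17.1) cover counting error only. Alternatives were other scalings, no filter, DESeq2 1.42.0, limma-voom (limma 3.58.1), the legacy option, the replicate block and leaving out each library. Scripts were tested on simulated data.

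The 8 genes and all gene lists were chosen with earlier results of these data known. Named genes were the 8, Hes1, up to 3 passing members of each pathway list in each direction with the largest change (or the 2 with the smallest p), the 2 most abundant of marker lists, of which those the results turn on are given, and the genes most like the 8; those most like Fn1 alone are not reported here. Protein features listed among the planned descriptions were not analysed here.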

Additional observations from a re-analysis of the deposited data

How the results depend on the processing

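The count of members with a higher fitted level in Hes1 KO was 7 of 8, or 6 with 6 libraries and library size alone or without WT replicate 3, where F13a1 was at -0.0203 and -0.0830 (log2). F13a1 with 6 libraries ranged from -0.0830 to 2.70 when a library was left out. Leaving out a library gave 6 to 7 of 8 with 6 libraries and 7 with 5. The members' median log2 fold change kept its direction throughout, at 1.30 to 3.01 when a library was left out of the 6 and 2.52 to 4.49 when one was left out of the 5. Counts of genes that passed were unstable. With 6 libraries they were 0, and 813 by DESeq2 (9 of them in the pathway lists); leaving out a library gave 0 to 2513 genes, and 0 to 19 in the lists. With 5 libraries they were 2513 (19 in the lists), 4997 (34) by DESeq2, 1440 (11) by limma-voom, 0 (0) with library size alone and 1710 (10) with the legacy dispersions. Leaving out a library from the 5 gave 0 to 6210 genes and 0 to 41 in the lists, the upper ends from fits with 1 WT library, which is assumed to vary like the Hes1 KO libraries. With the replicate block, 0 genes and 0 list genes passed with 5 libraries, 0 with 6, and the members' median was 2.52 with 6 and 3.67 with 5. The sample titles give replicate numbers and do not say whether libraries of the same number were paired. Deviations of same-numbered libraries correlated at 0.16, 0.01 and 0.24. With 3 libraries per group and WT replicate 1 very shallow, these values cannot settle a pairing. What the block's loss of calls means was not decided. The members' sum per monocyte marker count differed by 0.63 (log2), by 0.88 per macrophage marker count, by 2.46 per count of all genes, and by 0.16 to 0.89 when a library was left out. The cause of these shifts was not tested. Depth limits WT replicate 1 most, where Vcan, Timp2 and Mmp14 rest on 1, 2 and 0 counts.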
